A study of Rattus norvegicus with 3 samples.

Results

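The TRIM, F-box and cullin genes code for parts of the ubiquitin ligases, and their binding by HA-tagged TET2 was read from peak lists in rat aortic smooth muscle cells. They were chosen by symbol alone: Trim, Fbxo, Fbxl or Fbxw followed by a number, or Cul followed by a digit, in the gene column of either list. This gave 88 genes of the 14740 to which a peak was assigned, with 50 of 7579 genes in the Myocd-LSD1 list and 79 of 13312 genes in the Control list. The 88 genes held 60 of 9523 Myocd-LSD1 peaks and 159 of 25521 Control peaks. The RefSeq gene table (assembly GRCr8) names 132 genes of these families, of which 44 had no peak in either list. A peak was thus assigned to 66.7% of them, against 45.2% (10460) of the 23148 protein-coding genes of that table. Names of the peak lists were matched to that table by symbol or synonym, so a gene renamed without a match counts as having no peak. A renamed ligase gene entered the 132 only if it had a peak. The part of this matching in the difference was not tested, and the limit holds for each share of protein-coding genes below.

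CUT&Tag was used, in which an antibody leads a transposase to the bound sites and the released DNA is sequenced. Both groups were cultured lines of rat aortic smooth muscle cells that received an adenovirus carrying HA-TET2 for 24 h, and 500000 cells entered each assay with an antibody against the HA tag. The Myocd-LSD1 group was the line of that name, with 1 sample, and the Control group was the wild-type line, with 2 samples that name the same peak list. The labels do not say how the Myocd-LSD1 line was made, whether it is a clone, or how the Control samples were combined. TET2 came from the virus in both groups, so the peaks are those of overexpressed, tagged protein. With 1 list per group no difference between the lines could be tested, and the intervals below are exact Clopper-Pearson 95% intervals that cover counting error only.

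Cullins are the scaffolds of multi-subunit ubiquitin ligases: a RING protein at their C-terminal end recruits the ubiquitin-loaded enzyme, and an adaptor at their N-terminal end brings in the substrate. F-box proteins are substrate receptors that dock on the CUL1 scaffold through SKP1, and are sorted by their substrate-binding part into FBXW (WD40 repeats), FBXL (leucine-rich repeats) and FBXO (other). TRIM proteins are mostly ligases of their own, with a RING finger, B-boxes and a coiled coil in the same chain, and many act in antiviral defence or on chromatin. TET2 oxidises 5-methylcytosine, the modified base that in mammals lies mostly at CpG dinucleotides.

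The lists differed in depth, and this touches each comparison below. The background coverage, recovered from the deposited fold enrichments and p-values, was 0.0633 fragments per base in the Myocd-LSD1 list and 0.175 in the Control list, a ratio of 2.77 for Control over Myocd-LSD1. The number of fragments piled up at a summit was recovered in the same way and is used below as the height of a peak. It had a median of 5 at the Myocd-LSD1 peaks and 8 at the Control peaks of the ligase genes, close to the medians over all peaks (5 and 7). At 28.3% of the Myocd-LSD1 peaks of these genes, the height was 3 fragments or fewer, against 5.03% of the Control peaks. The part of depth in the shares below was not tested. Peaks do not measure expression, so they do not check the cell type. A peak was assigned to 1 of 8 smooth muscle markers in the Myocd-LSD1 list and to 5 of 8 in the Control list, for endothelial markers the counts were 0 of 5 in Myocd-LSD1 and 5 of 5 in Control, and for macrophage markers 0 of 4 and 2 of 4 in the same order. Over all protein-coding genes, 24.3% had a Myocd-LSD1 peak and 41.1% a Control peak.

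In both lines a larger share of the ligase genes' peaks than of all peaks lay near start sites, by counts that were not tested. Promoter peaks, those annotated to lie no further than 3 kb from a start, were 63.3% of the Myocd-LSD1 peaks (38 of 60, interval 49.9% to 75.4%) and 42.8% of the Control peaks (68 of 159, 35.0% to 50.8%). Over all peaks the shares were lower, 44.4% in Myocd-LSD1 and 30.3% in Control. The median distance to the start site was 459 bp for the Myocd-LSD1 peaks of these genes and 6589 bp for their Control peaks, against 5980 bp and 11082 bp over all peaks. Exon peaks were 3 of 60 in Myocd-LSD1 (5%) and 12 of 159 in Control (7.55%), against 3.5% and 10.7% over all peaks. The rest lay in introns, untranslated parts or between genes.

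Of the 88 genes, 41 had a peak in both lists, 9 in Myocd-LSD1 alone and 38 in Control alone. A peak in Control was assigned to 82.0% of the 50 genes of the Myocd-LSD1 list, close to the 81.2% found over all genes. Conversely, 51.9% of the 79 genes of the Control list were also in the Myocd-LSD1 list, against 46.2% over all genes. Promoter peaks gave the same picture: 27 of the 36 genes with a Myocd-LSD1 promoter peak had one in Control (75%, against 74.1% over all genes). Of the 55 genes with a Control promoter peak, 27 had one in Myocd-LSD1 (49.1%, interval 35.4% to 62.9%, against 43.4%).

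**Figure D1:**
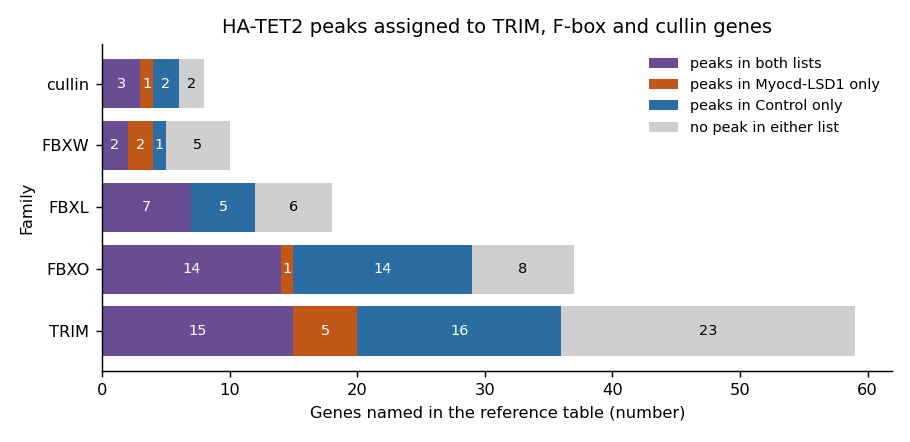
Number of genes (horizontal axis) of each family named in the reference table, divided by the list in which a peak was assigned to them. TRIM, the largest family with 59 genes, also has the most without a peak (23), and FBXO has 14 with peaks in both lists and 14 in Control alone.

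Family by family, a peak was assigned to 6 of 8 cullins, 5 of 10 FBXW, 12 of 18 FBXL, 29 of 37 FBXO and 36 of 59 TRIM genes, or from 50% (FBXW) to 78.4% (FBXO), against 45.2% of all protein-coding genes. The TRIM genes without a peak included Trim21, Trim5, Trim6, Trim34, Trim30c and Trim30d, and the FBXW genes without one were Fbxw2, Fbxw4, Fbxw5, Fbxw10 and Fbxw12. In the Control list, the share of peaks that overlapped a Myocd-LSD1 peak by at least 1 bp was 50% for cullins (3 of 6 peaks, interval 11.8% to 88.2%), 20% for FBXW (2 of 10), 20% for FBXL (7 of 35), 26.4% for FBXO (14 of 53) and 21.8% for TRIM (12 of 55), against 22.0% over all Control peaks. Each family's interval included that 22.0%.

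Among the cullins, Cul4a had the highest Myocd-LSD1 peak. CUL4A, like its X-linked relative CUL4B, uses the adaptor DDB1 and takes part in DNA repair and replication licensing. The Cul4a promoter held 11 fragments in Myocd-LSD1 (chr16:81756418-81757423 in rn6, the build of all peak coordinates here, fold enrichment 6.94 over the local background) and 15 in Control (chr16:81756653-81757438, fold 7.89), and both peaks lay across the start site. At Cul4b, 3 fragments were found in Myocd-LSD1 (fold 3.75) and 4 in Control (fold 4.26), again across the start site. At Cul5, which pairs with elongin B and C and SOCS-box receptors, the height was 5 fragments in each list (fold 5.53 in Myocd-LSD1 and 4.87 in Control). These 3 promoters were the cullin promoters with overlapping peaks.

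Cul2, the scaffold used by the von Hippel-Lindau protein, had a promoter peak in the Myocd-LSD1 list alone, with 2 fragments (fold 2.82), the lowest height a listed peak of these genes had. Cul3, the scaffold of the BTB-domain receptors such as KEAP1, had a peak of 11 fragments 545 bp upstream of its start (fold 9.13) and another of 4 fragments further upstream (chr9:86146529-86146887), both in the Control list alone. Cul1, the scaffold of the F-box proteins, had 1 Control peak of 3 fragments 303 bp downstream of its start (fold 3.28). Neither Cul1 nor Cul3 had a Myocd-LSD1 peak, and Cul7 and Cul9 had none in either list. Of all Control promoter peaks with 8 to 12 fragments, such as that of Cul3, 44.9% overlapped a Myocd-LSD1 peak, and of those with 3 to 4 fragments, such as that of Cul1, 16.0% did.

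Fbxw11 had the highest Myocd-LSD1 peak by fold of all the ligase genes. It codes for one of the β-TrCP receptors, which recognise phosphorylated β-catenin and IκB. Its promoter held 17 fragments in Myocd-LSD1 (chr10:17542140-17542487, fold 11.8) and 10 in Control (chr10:17542138-17542740, fold 5.23), so the Myocd-LSD1 pile-up was the higher one although that list had the lower background. Another Control peak of 11 fragments (fold 6.52) lay in exon 8 of 12 of Fbxw11 and overlapped no Myocd-LSD1 peak. Fbxw7, the receptor for cyclin E, MYC and Notch, had 1 peak of 3 fragments 1594 bp downstream of its start in Myocd-LSD1 (fold 3.76) and none in Control. Fbxw9 had 1 of 4 fragments at 93 bp in Myocd-LSD1 (fold 4.31) and none in Control. Fbxw8, whose product is the F-box partner of CUL7, had 1 intronic peak of 3 fragments in Myocd-LSD1 against 6 peaks in Control, where the promoter peak held 8 fragments (fold 5.99). Fbxw17 had a promoter peak of 5 fragments in Control alone.

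In the FBXL family, 4 genes had overlapping promoter peaks. Fbxl12 held 14 fragments in Myocd-LSD1 (fold 8.35) and 24 in Control (fold 9.96), with peaks across the start site that began at the same base. Fbxl19, whose product carries a CXXC domain that binds unmethylated CpG, held 9 fragments in Myocd-LSD1 (fold 6.59) and 12 in Control (fold 6.76), a little over 1 kb upstream. Fbxl20 held 5 fragments in Myocd-LSD1 and 6 in Control. At Fbxl14, a receptor for Snail-type transcription factors, 4 fragments were found in Myocd-LSD1 and 12 in Control. Fbxl7 had a promoter peak of 3 fragments in Myocd-LSD1 alone (fold 3.75). In Control alone, promoter peaks were assigned, among others, to Fbxl15 (10 and 8 fragments, fold 6.50 and 5.25), to Fbxl2 (8 fragments) and to Fbxl16 (8 fragments), none of which had a Myocd-LSD1 peak.

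In the FBXO family, 12 genes had a promoter peak in both lists. Fbxo5 codes for EMI1, an inhibitor of the anaphase-promoting complex, and its promoter held 17 fragments in Myocd-LSD1 (chr1:42467666-42468262, fold 11.7) and 13 in Control (chr1:42467654-42468150, fold 9.31). At Fbxo24, 17 fragments were found in each list (fold 11.2 in Myocd-LSD1 and 10.0 in Control), and both peaks began at the same base, chr12:22138456. At the Fbxo31 promoter, 19 fragments were found in Myocd-LSD1 (fold 8.64) and 35 in Control (fold 11.1). FBXO31 is a receptor that in human cells targets cyclin D1 after DNA damage. These promoters had the highest FBXO peaks in Myocd-LSD1, and the order of the lines differed among them.

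Lower pile-ups followed at the other shared FBXO promoters. Fbxo47 held 7 fragments in Myocd-LSD1 and 9 in Control, Fbxo33 held 7 and 9, and Fbxo11, a receptor for BCL6, held 7 and 8 in the same order. Fbxo46 held 7 fragments in Myocd-LSD1 and 15 in Control. At Fbxo18, which codes for the DNA helicase FBH1, each list had 6 fragments, and at Fbxo45 each had 5. Fbxo4 was higher in Myocd-LSD1, with 6 fragments against 4 in Control. Fbxo6, a receptor for N-glycosylated proteins, held 5 fragments in Myocd-LSD1 and 13 in Control, and a second Control peak across one of its start sites, of 25 fragments (fold 8.62), overlapped no Myocd-LSD1 peak. Fbxo17 had promoter peaks in both lists that did not overlap: the 1 in Myocd-LSD1 had 8 fragments (fold 7.32), and the 3 in Control had 11, 8 and 8.

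Fbxo25 had a promoter peak in Myocd-LSD1 alone, with 2 fragments (fold 2.82). In Control alone, the leading FBXO promoters by fold, among genes with no Myocd-LSD1 peak, were those of Fbxo10 (18 fragments, fold 7.44), whose product targets BCL2, of Fbxo34 (11 fragments, fold 7.05) and of Fbxo7 (7 fragments, fold 6.73), whose product binds the proteasome regulator PI31 and works with parkin. Fbxo34 had 5 further Control peaks within or near the gene, of 6 to 19 fragments, and no Myocd-LSD1 peak.

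TRIM genes had 7 promoters with peaks in both lists. Trim65 held 12 fragments in Myocd-LSD1 (fold 8.12) and 13 in Control (fold 4.78). Trim28 codes for KAP1, the corepressor of KRAB zinc finger proteins, and held 8 fragments in Myocd-LSD1 (fold 7.22) and 13 in Control (fold 8.82). Trim59 held 9 fragments in Myocd-LSD1 and 10 in Control. At Trim45, 6 fragments stood in Myocd-LSD1 (fold 5.74) against 25 in Control (fold 11.2), the widest gap among the TRIM promoters. Trim47 held 7 fragments in Myocd-LSD1 and 18 in Control, Trim23 held 4 and 6, and Trim44 held 2 and 7 in the same order. At the Trim37 promoter, a Control peak of 5 fragments overlapped a Myocd-LSD1 peak of 7 that had been assigned to the neighbouring gene Prr11.

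Trim41, Trim36, Trim27 and Trim3 had promoter peaks in Myocd-LSD1 alone. Trim41 had 1 peak of 11 fragments 47 bp downstream of its start (fold 7.30) and 1 of 7 fragments further upstream (chr10:34168067-34168333) (fold 4.92), and its nearest Control peak lay 6281 bp beyond the upstream one. The peak near its start held the most fragments of the ligase genes' Myocd-LSD1 peaks that overlapped no Control peak. Trim36 had 5 fragments across its start (fold 4.72), Trim27 had 5 (fold 4.48) and Trim3 had 2 (fold 2.81). The Trim27 peak lay 114 bp from a Control peak assigned to another gene. In Control alone, Trim16 had 12 fragments at its promoter (fold 6.95), with an intronic peak of 5 fragments in Myocd-LSD1 overlapping 1 of 7 in Control. Trim7 (9 and 8 fragments), Trim39 (7 and 6), Trim72 (7), Trim46 (7), Trim8 (8), Trim35 (6), Trim68 (5), Trim67 (4) and Trim52 (3) also had promoter peaks in Control alone.

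Of 10 genes known for roles in muscle or its turnover, 6 had no peak and 4 had one, against 45.2% of all protein-coding genes with a peak. None was assigned to Trim63, Trim54 or Trim55, the MuRF ligases of the sarcomere, to Fbxo32, the atrophy-linked atrogin, or to Trim32 and Fbxl22. Trim72, which codes for the membrane-repair protein MG53, had 0 peaks in Myocd-LSD1 and 3 in Control, the highest of which (15 fragments, fold 9.34) lay in its 3′ UTR. Fbxo40, a receptor for the insulin receptor substrate in skeletal muscle, had 1 overlapping pair about 7 kb upstream of its start, with 6 fragments in Myocd-LSD1 (fold 6.35) and 4 in Control (fold 4.21). The other 2 genes, Fbxw7 and Cul3, are given above.

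The promoter sequences of 5 genes are given to show how far their CpG content ranged among promoters with high shared peaks (Fbxw11 and Fbxo24), a promoter peak in Myocd-LSD1 alone (Trim36) and promoter peaks in Control alone (Trim16 and Fbxo7). They come from the RefSeq table of GRCr8 and hold 250 bases before and 50 after the annotated start, 5′ to 3′ on the gene's strand. That start need not be the one to which the rn6 peak was assigned. The intervals are chr10:17736947-17737246 on the plus strand for Fbxw11, chr12:24709247-24709546 on the plus strand for Fbxo24, chr18:41099448-41099747 on the minus strand for Trim36, chr10:47985300-47985599 on the plus strand for Trim16 and chr7:19725131-19725430 on the minus strand for Fbxo7. Capitals mark each CpG.
Fbxw11: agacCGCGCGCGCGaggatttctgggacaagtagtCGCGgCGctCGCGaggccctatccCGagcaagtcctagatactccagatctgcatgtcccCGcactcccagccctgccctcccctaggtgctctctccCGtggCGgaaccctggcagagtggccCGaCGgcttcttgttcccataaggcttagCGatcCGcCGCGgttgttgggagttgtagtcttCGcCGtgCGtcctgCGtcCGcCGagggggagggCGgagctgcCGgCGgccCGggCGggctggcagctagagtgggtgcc
Fbxo24: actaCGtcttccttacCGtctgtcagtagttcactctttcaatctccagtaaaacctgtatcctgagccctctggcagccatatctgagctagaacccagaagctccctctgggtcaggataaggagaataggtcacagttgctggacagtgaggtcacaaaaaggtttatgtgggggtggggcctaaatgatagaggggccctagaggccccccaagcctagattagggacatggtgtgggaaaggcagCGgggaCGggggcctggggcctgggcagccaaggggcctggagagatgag
Trim36: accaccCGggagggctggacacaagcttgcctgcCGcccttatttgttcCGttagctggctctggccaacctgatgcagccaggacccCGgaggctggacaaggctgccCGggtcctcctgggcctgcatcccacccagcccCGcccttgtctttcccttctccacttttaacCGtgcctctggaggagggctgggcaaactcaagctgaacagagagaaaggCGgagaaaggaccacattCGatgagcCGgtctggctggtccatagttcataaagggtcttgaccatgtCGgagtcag
Trim16: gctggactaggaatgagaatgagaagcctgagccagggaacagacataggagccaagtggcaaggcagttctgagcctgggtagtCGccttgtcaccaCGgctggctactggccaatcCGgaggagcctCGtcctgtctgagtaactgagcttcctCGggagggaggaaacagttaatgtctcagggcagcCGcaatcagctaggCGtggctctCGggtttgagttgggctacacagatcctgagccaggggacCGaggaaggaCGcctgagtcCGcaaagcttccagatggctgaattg
Fbxo7: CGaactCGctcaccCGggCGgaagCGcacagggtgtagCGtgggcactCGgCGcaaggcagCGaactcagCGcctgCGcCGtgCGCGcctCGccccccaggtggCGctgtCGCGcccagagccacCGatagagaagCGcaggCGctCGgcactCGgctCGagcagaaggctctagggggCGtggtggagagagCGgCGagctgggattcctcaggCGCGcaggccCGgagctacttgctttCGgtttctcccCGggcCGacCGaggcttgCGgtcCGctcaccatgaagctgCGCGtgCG

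Fbxw11 had 31 CpG in these 300 bases and Fbxo24 had 4, although both carried 17 fragments in Myocd-LSD1. Trim36 and Trim16 had 11 each, and Fbxo7, with no Myocd-LSD1 peak, had 39. A sequence was found for 26 of the 27 ligase genes with promoter peaks in both lists, and their median was 18.5 CpG (quartiles 10.2 and 32.0), against 24.0 over the 2273 protein-coding genes of that kind. For genes with a promoter peak in either list the median was 18.0 (54 of 64 genes), against 22.0 over all, and for those with none it was 14 (55 genes), against 7 over all. Of the genes with a promoter peak in 1 list alone, 7 of 9 in Myocd-LSD1 and 21 of 28 in Control had a sequence. With as few as 7 genes, no comparison of Myocd-LSD1 with Control was made.

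Motifs were searched on both strands of the same 300 bases. GGGCGGG, the core of SP and KLF sites, was found in 8 of the 26 ligase promoters with peaks in both lists (30.8%), against 53.6% of all promoters of that kind and 30.7% of all 18999 promoters. With a promoter peak in either list the share was 40.7%, against 48.5% over all. With none it went the other way, 32.7% against 23.3%, and over all ligase promoters it was 36.7%. The ETS-type motif CCGGAAG was found in 4 of 26 (15.4%), against 17.3% of that kind and 11.2% of all promoters. The CArG box, the site of serum response factor and its coactivator myocardin, was found in 0 of 26, against 1.14% and 1.62%. At so low a share, 26 promoters are too few to show a lack of the box. It was found in 3 of the 55 ligase promoters without a promoter peak (5.45%), against 1.79% of all promoters of that kind. A match is a description of the letters and not of binding.

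The 28 pairs of promoter peaks below were chosen because they overlapped, which by itself limits the distance between their summits. That distance had a median of 54.5 bp and ran from 0 to 527 bp, and in 19 pairs it was within 100 bp. It was not computed over all overlapping promoter pairs, so nothing particular to the ligase genes can be read from it. Most summits lay within 500 bp of the start site, with those of Fbxl19, Trim47 and an inner start of Fbxo31 over 1 kb away. Trim44 had the widest gap, with the Myocd-LSD1 summit upstream of the start and the Control summit downstream.

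**Figure D2:**
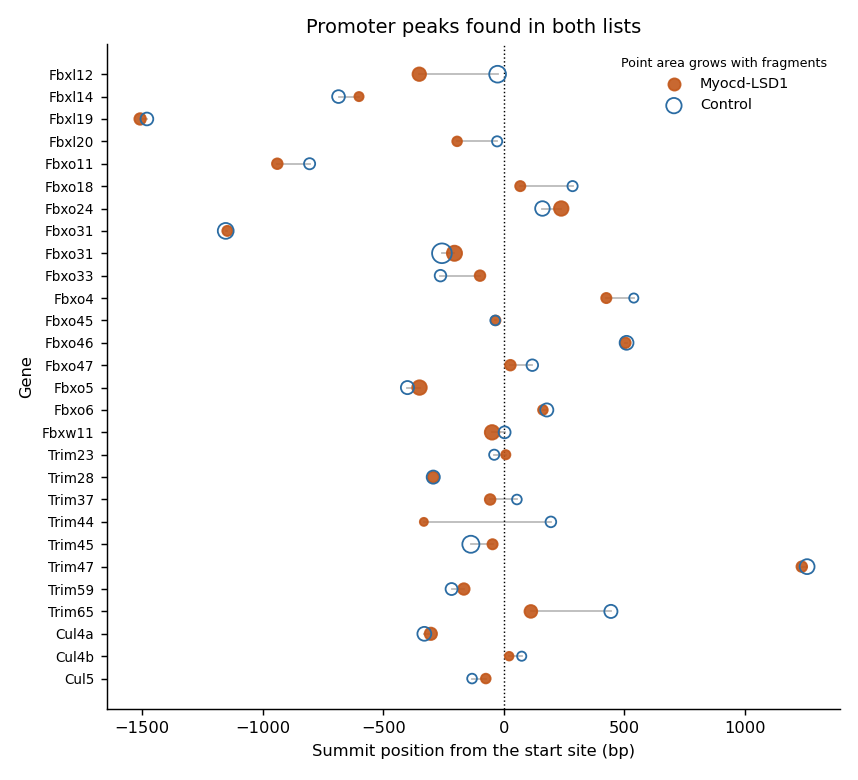
Position of the summit of each overlapping pair of promoter peaks, in bp from the start site (dotted line), 1 row per pair, with point area growing with fragments in Myocd-LSD1 (filled) and Control (open). The median distance between the summits of a pair is 54.5 bp.

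The overlap of the lists followed the annotation class. Of the 60 Myocd-LSD1 peaks of the ligase genes, 37 overlapped a Control peak (61.7%, interval 48.2% to 73.9%), close to the 59.4% over all Myocd-LSD1 peaks. The share was 71.1% at promoters (27 of 38, against 69.0% over all peaks), 66.7% in exons (2 of 3, against 55.9%) and 42.1% elsewhere (8 of 19, against 51.4%). Of the 159 Control peaks, 38 overlapped a Myocd-LSD1 peak (23.9%, 17.5% to 31.3%), against 22.0% over all Control peaks. At promoters 28 of 68 did (41.2%, 29.4% to 53.8%, against 37.8%), in exons 2 of 12 (16.7%, 2.09% to 48.4%, against 8.52%), and elsewhere 8 of 79 (10.1%, 4.47% to 19.0%, against 16.4%). Each interval included the share over all peaks.

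**Figure D3:**
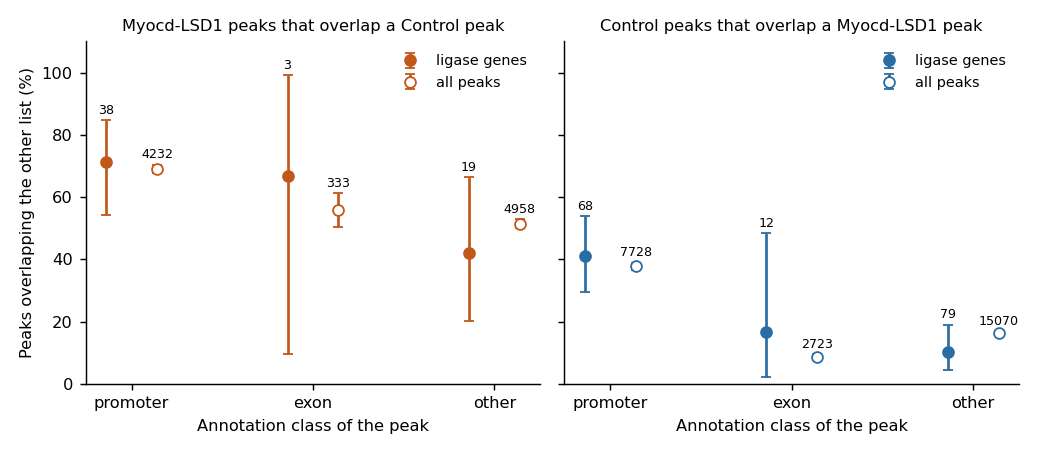
Share of peaks (%) that overlap a peak of the other list by at least 1 bp, by annotation class, for Myocd-LSD1 peaks (left panel) and Control peaks (right panel). Filled points are the ligase genes and open points all peaks, bars are exact 95% intervals and the labels over them the number of peaks; the open points lie within the intervals of the filled ones.

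In both lists, higher peaks overlapped the other list more often over all peaks. The Control promoter peaks of these genes, 5 to 25 per range of height, were too few to show a steady order. Of the Myocd-LSD1 peaks of these genes, 3 of 17 with 2 to 3 fragments overlapped a Control peak. That was 17.6%, against 21.3% over all Myocd-LSD1 peaks of that height. The counts were 12 of 17 with 4 to 5 fragments (70.6%, against 60.4%) and 12 of 15 with 6 to 8 (80%, against 79.6%). With 9 or more it was 10 of 11 (90.9%, against 94.5%). The share thus rose with height over all Myocd-LSD1 peaks too. Of the 23 Myocd-LSD1 peaks that overlapped none, 14 had 3 fragments or fewer and 4 had 6 or more: both Trim41 peaks, that of Fbxo17 and 1 of 6 fragments in exon 1 of Trim14. Of the Control promoter peaks, 2 of 5 with 3 to 4 fragments overlapped a Myocd-LSD1 peak (40%, against 16.0% over all promoter peaks of that height), as did 7 of 22 with 5 to 7 (31.8%, against 26.2%) and 7 of 25 with 8 to 12 (28.0%, interval 12.1% to 49.4%, against 44.9%). Above that, 8 of 10 with 13 to 20 fragments did (80%, 44.4% to 97.5%, against 57.2%) and 4 of 6 with 21 or more (66.7%, 22.3% to 95.7%, against 63.7%).

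In overlapping pairs, the Myocd-LSD1 peak mostly held fewer fragments. It held at least as many as the Control peak in 9 of 38 pairs (23.7%, interval 11.4% to 40.2%), against 16.6% of all pairs, and in 8 of 28 promoter pairs (28.6%, 13.2% to 48.7%), against 23.1%. The median ratio of fragments, Myocd-LSD1 over Control, was 0.724 in these pairs and 0.583 in all pairs, and the ratio of the background coverages was 0.362. At promoters it was 0.764, against 0.667 over all promoter pairs, and outside promoters and exons it was 0.339 (8 pairs), against 0.5. Only Control peaks met by a called Myocd-LSD1 peak form pairs (38 of 159), so sites too low to be called in Myocd-LSD1 are left out. A ratio in pairs above 0.362 is therefore no measure of stronger binding in Myocd-LSD1. The pairs with more fragments in Myocd-LSD1 than in Control were those of Fbxw11, Fbxo5, Fbxo4, Trim37 and Fbxo40.

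**Figure D4:**
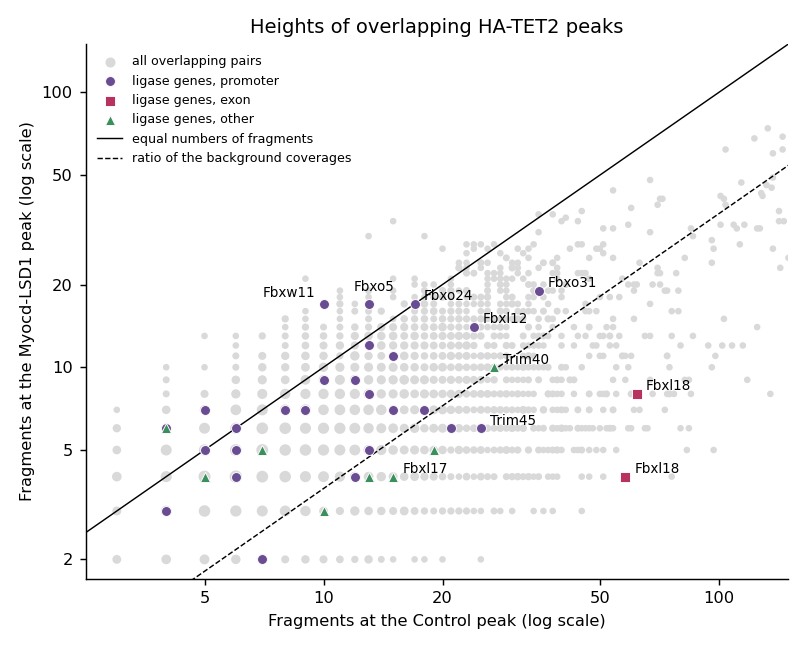
Fragments at the Myocd-LSD1 peak (vertical axis) against fragments at the overlapping Control peak (horizontal axis), both on log scales, for all pairs (grey, larger where pairs coincide) and for pairs of the ligase genes, up to 150 fragments. Fbxw11 and Fbxo5 lie above the line of equal numbers (solid), and the exon pairs of Fbxl18 lie below the line of the background ratio, 0.362 (dashed).

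Outside promoters, the peaks of these genes with most fragments lay in exons of Fbxl18, whose product is an F-box protein with leucine-rich repeats. Its exon 3 of 5 held 4 fragments in Myocd-LSD1 (chr12:13736603-13736887, fold 4.13) and 58 in Control (chr12:13736273-13737330, fold 12.6). Its exon 4 held 8 fragments in Myocd-LSD1 (chr12:13744993-13745163, fold 5.13) and 62 in Control (chr12:13744753-13745439, fold 11.2). The ratio of fragments had a median of 0.0990 over this pair of sites, below the background ratio of 0.362 and below the 0.353 over 232 exon pairs, and Fbxl18 had no promoter peak in either list. The next exon peaks by fold were found in Control and overlapped no Myocd-LSD1 peak: exon 1 of 6 of Fbxl21 (10 fragments, fold 6.84), the Fbxw11 exon named above, and exon 7 of 17 of Fbxo21 (10 fragments, fold 5.57).

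The gene with most Control peaks was Fbxl14, with 3 in Myocd-LSD1 and 9 in Control, where 7 lay in distal intergenic sequence between chr4:151959487 and chr4:152052928. Fbxl17, whose product removes mispaired BTB-domain dimers, had 1 peak in Myocd-LSD1 and 7 in Control. Its Myocd-LSD1 peak (4 fragments) overlapped the Control intron peak of highest fold there (15 fragments, fold 11.1), 149109 bp into the gene. Fbxo31 had 3 peaks in Myocd-LSD1 and 6 in Control, and each Myocd-LSD1 peak overlapped a Control peak. Besides the promoter, these pairs held 6 fragments in Myocd-LSD1 and 21 in Control a little over 1 kb upstream of a start site inside the gene. In an intron of RGD1304884 the pair held 5 and 19 in the same order. The other Control peaks of Fbxo31, of 30 (fold 7.81), 27 (fold 6.63) and 15 fragments (fold 4.96), overlapped no Myocd-LSD1 peak. A peak was assigned to the nearest start site, and 1 Myocd-LSD1 and 10 Control peaks of these genes lay in an exon or intron of another gene.

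**Figure D5:**
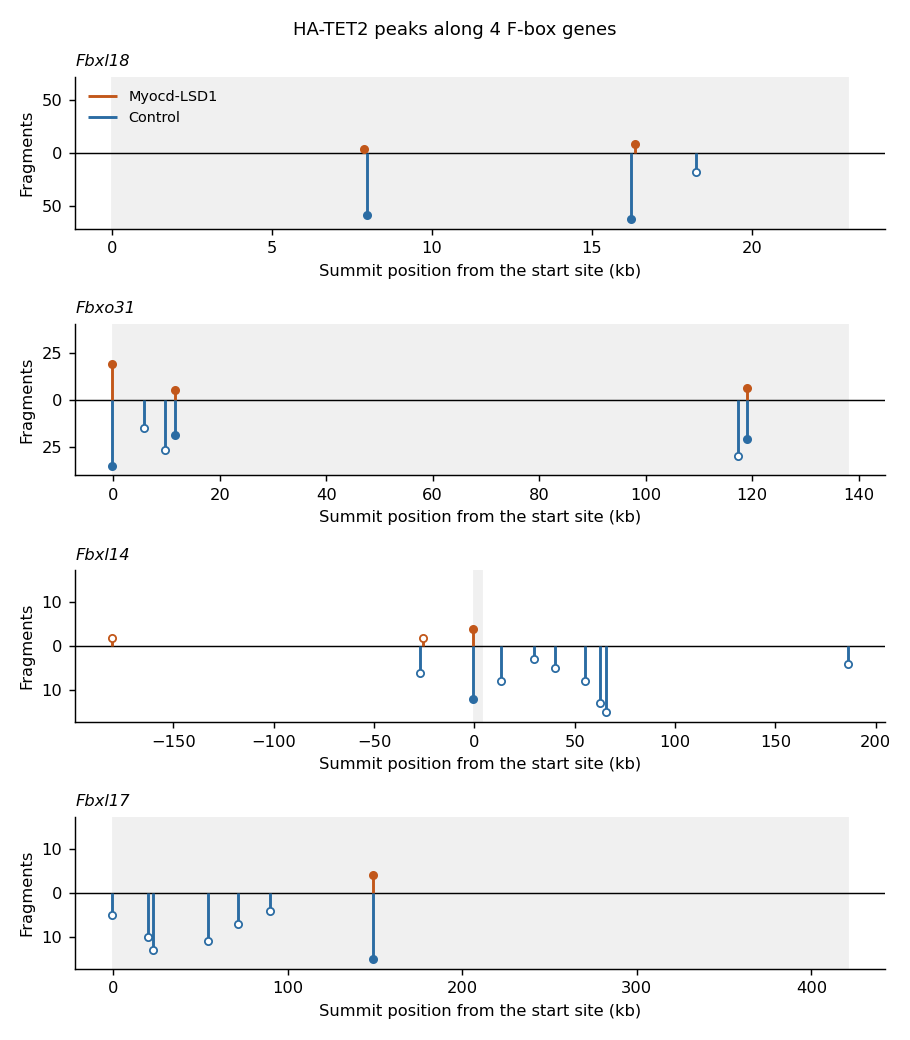
Summit positions in kb from the start site, with height in fragments, drawn upward for Myocd-LSD1 and downward for Control in 4 F-box genes, where the grey band is the transcript and filled points overlap a peak of the other list. Fbxl18 has Control peaks of 58 and 62 fragments inside the gene, and the Fbxl17 and Fbxl14 Control peaks spread far outside the promoter.

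The other genes of the cullin pathway were taken from a list of 37. Of these, 22 had a Myocd-LSD1 peak, 28 a Control peak and 19 both, and 16 had a promoter peak in both lists. Over all protein-coding genes, 24.3% had a Myocd-LSD1 peak, 41.1% a Control peak, 20.3% both, and 11.5% promoter peaks in both lists. Their Control peaks overlapped a Myocd-LSD1 peak in 18 of 53 cases (34.0%), against the 22.0% over all Control peaks. That 22.0% mixes 37.8% at promoters with 8.52% in exons and 16.4% elsewhere. The share of the list was not split by annotation class and no interval was computed for it, so extra overlap at these genes cannot be read from it. Rbx1, the RING subunit of most cullin ligases, had the highest Myocd-LSD1 promoter peak of the list, with 18 fragments (fold 11.0), against 11 in Control (fold 6.31). Cdc34, a ubiquitin-conjugating enzyme of the F-box ligases, held 12 fragments in Myocd-LSD1 and 13 in Control. Nedd8, the ubiquitin-like protein that activates cullins, held 5 and 8 in the same order, and Ube2m, which attaches it, also held 5 and 8. Keap1 held 5 fragments in Myocd-LSD1 and 51 in Control at its promoter. Skp1, the link between Cul1 and the F-box proteins, had no promoter peak in either list, and neither did Ddb1.

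A second list held 36 ligases outside the symbol rule, of which 18 had a Myocd-LSD1 peak, 21 a Control peak and 12 both, to be read against the 24.3%, 41.1% and 20.3% over all protein-coding genes. Their Control peaks overlapped a Myocd-LSD1 peak in 14 of 51 cases (27.5%), against 22.0% over all Control peaks, again without an interval or a split by annotation class. The highest Myocd-LSD1 promoter peaks were those of Stub1, a chaperone-linked ligase (13 fragments, against 16 in Control), of Mdm2, the ligase of p53 (12, against 23), and of Smurf1, a ligase of the TGF-beta and BMP pathways (11, against 19).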

How the data were processed

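CUT&Tag for HA-TET2 was analysed from 2 deposited peak tables on rn6, in which the authors had called peaks with MACS2 and annotated them with ChIPseeker (Bowtie2 and deepTools are also named, per the submitters' processing notes, without versions). The deposited tables give for each peak the fold enrichment (a ratio), −log10 p-value, −log10 q-value, a score and its distance to the nearest start site. No source used here says whether the Control samples were pooled, or how duplicates were treated. The lowest −log10 q-value of any peak was 1.31 in Myocd-LSD1 and 1.32 in Control. The total reads per sample are unknown.

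Starts were converted to 1-based coordinates. Each pile-up was taken as the whole number of fragments that gives both the deposited fold, with a pseudocount of 1, and the Poisson p-value. The distance of the best number was over 0.1 of that of the next best at 11 Myocd-LSD1 and 41 Control peaks, none of them assigned to the ligase genes. Of the numbered peaks, 23 in Myocd-LSD1 and 45 in Control were not among the rows analysed here. Recovery and overlaps were tested on simulated data and against bedtools 2.31.1. Overlap means at least 1 bp. Python 3.11.15, pandas 2.3.3 and scipy 1.17.1 were used. The genes, lists and alternatives were chosen with earlier results of these data known. Every cullin was named, and in the other families the highest shared promoters, the highest Control-only promoters, each promoter found in Myocd-LSD1 alone, the genes with most Control peaks, the highest exon peaks and 10 muscle-related genes. The values of 1 gene counted among the 88 are not reported here.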

Additional observations from a re-analysis of the deposited data

How the results depend on the processing

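No paired analysis was possible because each group has 1 peak list and no value per sample, and for the same reason no replicate could be left out. With a reciprocal overlap of 50%, the share of the ligase genes' Myocd-LSD1 peaks that overlapped a Control peak was 43.3%, that of their Control peaks that overlapped a Myocd-LSD1 peak was 16.4% (14.4% over all Control peaks), and that of their Control exon peaks was 0. With a −log10 q-value of at least 3 in both lists, 27 Myocd-LSD1 peaks at 26 genes were left, 81.5% of those peaks overlapped a Control peak, and 1.79% of the Control peaks outside promoters and exons were overlapped. With the Control list shortened to its 9523 peaks of lowest p-value, the length of the Myocd-LSD1 list, 55 Control peaks at 38 genes were left. Then 35.0% of the Myocd-LSD1 peaks overlapped a Control peak. The share of Control peaks overlapped was 38.2% (38.7% over all), 55.6% at promoters (57.9% over all) and 50% in exons, and 66.7% of genes with a Control promoter peak had one in Myocd-LSD1. Shortening removes Control peaks by construction, and for the other settings the cause was not tested. Where no share over all peaks or genes stands beside a value here, none was computed at that setting. Such values show how a result moved and nothing particular to the ligase genes. Values moved by less than their interval, and counts by less than 1.5 times, when the summit had to lie inside the other peak, with promoters within 1 kb, with family members under other symbols added, and, chosen after seeing the data, without the peaks that lie in another gene. With 3 to 12 cullin, FBXW or exon peaks in a list, the intervals are wide.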

Other observations

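Some ligase genes lie side by side, and their peaks differed between neighbours, mostly at peaks of few fragments. Of all Control peaks, 6.56% with 3 to 4 fragments, 14.1% with 5 to 7 and 24.7% with 8 to 12 overlapped a Myocd-LSD1 peak. Low peaks in Control alone were thus common over all genes, and nothing particular to these neighbours can be read from them. On chromosome 20, the highest Control peak by fold of all the ligase genes lay in an intron of Trim40, with 10 fragments in Myocd-LSD1 (fold 8.65) and 27 in Control (fold 15.9, at or above 99.7% of the Control list). Nearby, Trim31 had 1 intergenic peak of 4 fragments in Myocd-LSD1 alone, and Trim15 (3 fragments) and Trim26 (7 fragments) had peaks in Control alone, as did the Trim39 promoter. On chromosome 10, Trim47 had 1 peak in Myocd-LSD1 and 5 in Control, while Trim65 had 1 and 2 in the same order. On chromosome 5, Fbxo6 had peaks in both lists, Fbxo44 a promoter peak of 8 fragments in Control alone and Fbxo2 an intergenic one of 6 fragments in Control alone. Apart from these neighbours, an intergenic site was assigned to Trim24, which codes for a chromatin-reading TRIM protein, only because its start was the nearest. The site lay far upstream of that start, at chr4:65507702-65507964 in Myocd-LSD1 (4 fragments), and overlapped a Control peak of 13 fragments.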
